A study of Mus musculus with 10 samples.

Results

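The interferon-induced genes examined here were 44 mouse genes known as targets of interferon signalling, and their levels were read on 10 Affymetrix arrays of activated, retrovirally transduced spleen CD4+ T cells. The genes were taken from a list of names, and each was represented by the probe set, a group of array probes for 1 transcript, that was annotated to that symbol alone and had the highest mean over the 10 arrays. Of the 44 genes, 42 had such a probe set, among 18193 genes in all. Isg15 had only a probe set annotated to 2 symbols and Ifi44 had none, so neither was analysed here. Of the 42, 40 passed the filter on dim genes, among 11318 genes tested, and Oas2 and Oasl1 did not pass. The 42 genes comprised 4 transcription factors, 5 nucleic acid sensors, 5 members of the OAS family, 10 IFIT, MX and other antiviral effectors, 6 members of the ISG15 system and signal modulators, 7 IRG and GBP GTPases, 3 genes of MHC class I peptide supply and 2 other induced genes.

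The study asked how far gene expression in regulatory T cells (Treg) is set by Foxp3, their lineage factor, and how far by their epigenetic state. The samples formed 5 groups of 2 arrays, and every array carried cells activated with antibodies to CD3 and CD28, infected with a retrovirus based on pGCSamIN and sorted for its NGFR marker. The DEREG mouse carries a transgene in which the Foxp3 promoter drives green fluorescent protein (GFP), so GFP marks cells in which that promoter is active. All 10 arrays carried the strain entry DEREG_Balb/c, and age, sex and the number of animals per array were not given in the sources used here. Tconv mock was titled Foxp3(-)epigenetics(-) and held GFP- conventional T cells of DEREG mice with the empty vector. Tconv Foxp3 held the same kind of cell labelled as transduced with Foxp3. Treg mock was titled Foxp3(+)epigenetics(+) and held GFP+ cells of DEREG mice with the empty vector. Scurfy mock was titled Foxp3(-)epigenetics(+) and held GFP+ cells described as D_S with the mock vector, where D_S was read as DEREG/Scurfy, the Foxp3-mutant strain that the protocol names. Scurfy Foxp3 held D_S GFP+ cells labelled as transduced with Foxp3. The labels do not say whether the 2 arrays of a group stand for different animals or cultures, so the spread behind every p-value is that between arrays and may be technical.

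Type I interferons bind the receptor IFNAR1/IFNAR2 and activate a complex that contains STAT2 and IRF9 and binds the interferon-stimulated response element (ISRE) in the promoters of antiviral genes. Interferon gamma, a product of activated T cells themselves, binds IFNGR1/IFNGR2, acts through the gamma-activated site (GAS) in promoters and induces IRF1, GTPases of the IRG and GBP families and the machinery that supplies peptides to MHC class I. Many genes answer both kinds of interferon, so the families overlap in what induces them. Scurfy mice lack functional Foxp3 and develop a fatal inflammatory disease driven by T cells.

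The promoters of 33 of the 42 genes were in the RefSeq table used here (build GRCm38.p6), as windows of 300 bases from 250 bases before the transcription start to 50 after it. The ISRE core was searched as GAAANNGAAA on both strands (TTTCNNTTTC on the other), and a match is a description of the letters, not a bound site. It was found in a window of 17 of these 33 genes (51.5%), against 3.99% of all 27025 genes in the table and 3.71% of the genes tested that had a window. The GAS core, TTCNNNGAA, which reads the same on both strands, was found for 11 of the 33 genes (33.3%), against 9.55% of all genes in the table. Of the GTPases, 6 of 7 had an ISRE match, as did 3 of 3 sensors, 4 of 8 effectors, 2 of 4 OAS genes, 1 of 4 transcription factors and none of the 3 MHC class I genes. In Irf1 the window held no ISRE match but a GAS match, TTCCCCGAA, 90 bases before the start. The windows of 6 genes whose values are described below are shown 5′ to 3′ on the strand of the gene, with ISRE matches in capitals. Ifit1, Rsad2 and Oas1a are antiviral genes with wide ranges over the arrays, Gbp2 and Gbp3 are paralogous GTPases whose levels differed in order between groups, and Tap1 has no match and a narrow range.
Ifit1 (chr19:34640639-34640938, plus strand): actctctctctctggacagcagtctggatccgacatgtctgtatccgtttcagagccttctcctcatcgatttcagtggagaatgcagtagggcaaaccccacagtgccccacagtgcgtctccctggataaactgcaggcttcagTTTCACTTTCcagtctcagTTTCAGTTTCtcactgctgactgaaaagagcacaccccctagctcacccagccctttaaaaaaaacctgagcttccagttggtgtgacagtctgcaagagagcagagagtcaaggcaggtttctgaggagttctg
Rsad2 (chr12:26456403-26456702, minus strand): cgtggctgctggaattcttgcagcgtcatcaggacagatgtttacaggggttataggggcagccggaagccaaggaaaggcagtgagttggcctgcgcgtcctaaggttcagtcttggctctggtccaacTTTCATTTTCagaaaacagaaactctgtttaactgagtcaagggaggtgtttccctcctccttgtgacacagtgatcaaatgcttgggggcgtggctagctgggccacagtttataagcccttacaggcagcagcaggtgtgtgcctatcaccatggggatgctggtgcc
Oas1a (chr5:120907476-120907775, minus strand): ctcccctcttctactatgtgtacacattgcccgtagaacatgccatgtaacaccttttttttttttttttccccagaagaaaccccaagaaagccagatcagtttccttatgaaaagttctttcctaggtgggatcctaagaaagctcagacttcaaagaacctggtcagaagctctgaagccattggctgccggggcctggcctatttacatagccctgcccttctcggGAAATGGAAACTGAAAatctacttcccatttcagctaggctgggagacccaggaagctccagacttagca
Gbp2 (chr3:142620413-142620712, plus strand): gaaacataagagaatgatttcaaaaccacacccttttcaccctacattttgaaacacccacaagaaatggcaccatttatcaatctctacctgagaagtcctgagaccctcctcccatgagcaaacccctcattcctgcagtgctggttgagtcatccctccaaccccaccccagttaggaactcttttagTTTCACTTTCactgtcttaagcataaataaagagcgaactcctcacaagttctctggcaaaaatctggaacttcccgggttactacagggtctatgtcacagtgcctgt
Gbp3 (chr3:142559794-142560093, plus strand): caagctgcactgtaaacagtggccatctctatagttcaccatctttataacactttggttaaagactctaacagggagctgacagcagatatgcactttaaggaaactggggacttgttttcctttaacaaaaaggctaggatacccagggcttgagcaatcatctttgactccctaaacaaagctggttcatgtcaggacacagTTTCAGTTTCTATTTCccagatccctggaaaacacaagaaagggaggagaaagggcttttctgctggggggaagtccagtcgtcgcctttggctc
Tap1 (chr17:34187306-34187605, plus strand): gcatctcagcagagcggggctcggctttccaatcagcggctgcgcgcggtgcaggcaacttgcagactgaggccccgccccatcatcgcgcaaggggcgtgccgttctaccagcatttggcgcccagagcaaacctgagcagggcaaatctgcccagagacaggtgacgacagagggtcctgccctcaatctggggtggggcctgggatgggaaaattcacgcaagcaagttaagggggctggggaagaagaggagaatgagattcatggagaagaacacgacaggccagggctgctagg
The 2 matches of Ifit1 began 104 and 85 bases before the start, and that of Rsad2 began 120 bases before it. In Oas1a and Gbp3 a pair of matches shared letters, beginning 20 and 14 bases before the start in Oas1a and 45 and 39 in Gbp3. Gbp2 had 1 match, 59 bases before the start. Over the 10 arrays, the 17 genes with an ISRE match had a median range of 3.35 log2 units and the 16 without one a median of 2.21, with ranges of 1.32 to 7.01 and 0.55 to 5.14.

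The deposited values were intensities, the brightness of a probe set on a linear scale, and a probe set near the median intensity of its array, 18.8 to 36.5, was close to background. Logarithms were taken as log2(intensity + 16), and a fold change on that scale understates the change of dim genes. Markers that define T cells summed to an intensity of 21700 to 30200 on every array. Foxp3 read 53.9 and 35.9 in Tconv mock, 18.0 and 18.9 in Tconv Foxp3, 2130 and 3128 in Treg mock, 1188 and 1114 in scurfy mock and 948 and 691 in scurfy Foxp3, so its probe set was not brighter on the arrays labelled as transduced with Foxp3. Where that probe set lies in the transcript, and whether the vector holds the matching sequence, was not given in the sources used here. The Foxp3 groups are therefore named by their labels.

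The interferon-induced genes were high together on single arrays, above all on scurfy mock array 1 and scurfy Foxp3 array 1. The mean log2 level of the 40 genes was 10.4 on scurfy mock array 1 and 8.03 on scurfy mock array 2. It was 9.66 and 8.51 on the scurfy Foxp3 arrays, 7.62 and 8.68 on the Treg mock arrays, 7.87 and 7.66 in Tconv mock and 7.68 and 7.62 in Tconv Foxp3. Over the same arrays the mean of all 11318 genes lay between 7.60 and 8.09. Of the 42 genes, 34 were highest on scurfy mock array 1, 7 on scurfy Foxp3 array 1 and 1, Gbp3, on Treg mock array 2. After quantile normalization or scaling to a common 75th percentile, scurfy mock array 1 and scurfy Foxp3 array 1 still had the highest means, 10.32 and 9.44 after quantile normalization.

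**Figure D1:**
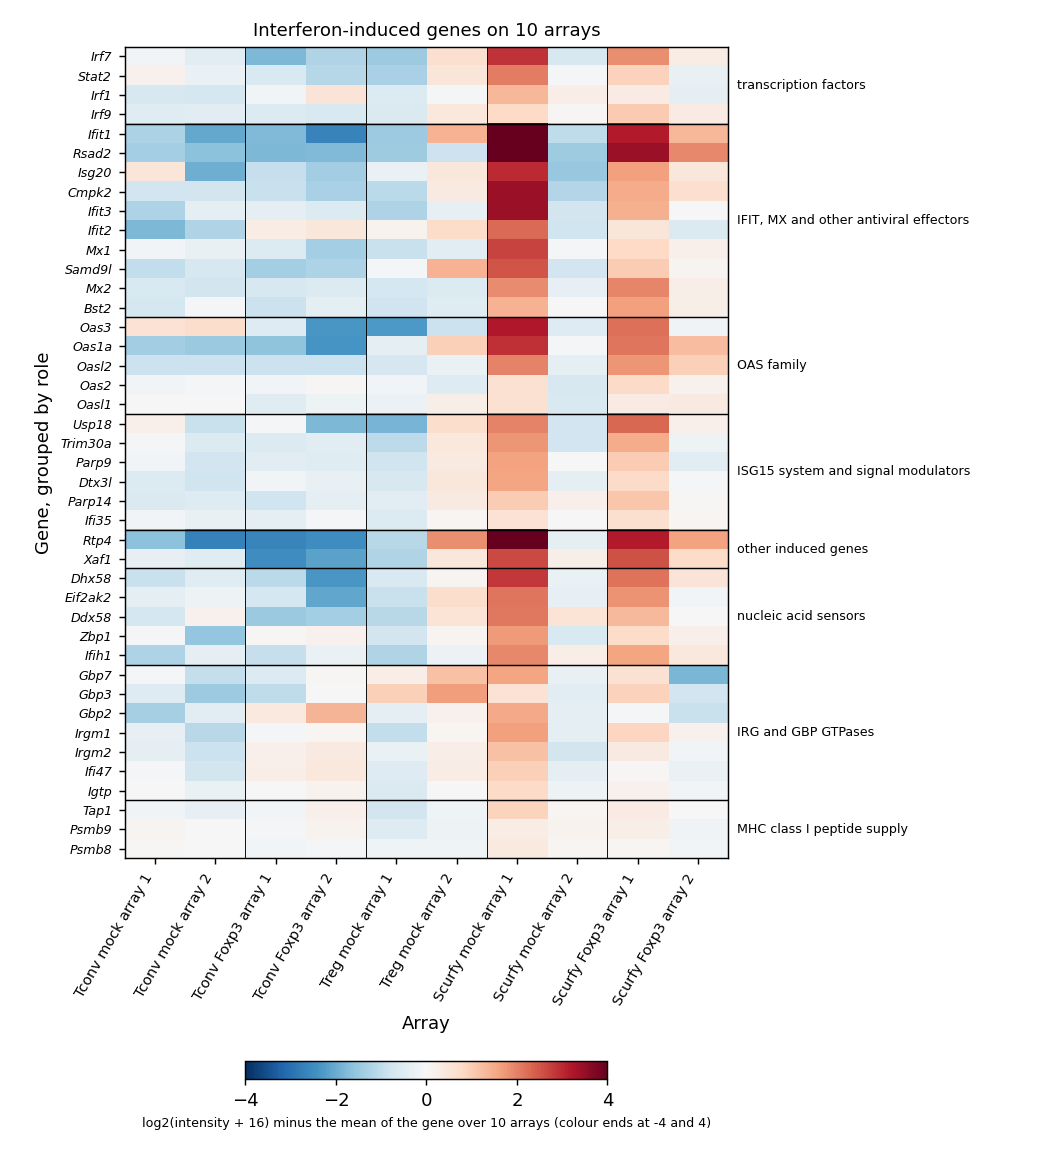
Levels of the 42 genes on each of the 10 arrays, as log2(intensity + 16) minus the mean of the gene over the arrays, with genes in rows grouped by role and arrays in columns. The column of scurfy mock array 1 is the reddest, and 34 of the 42 genes had their highest value there.

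In every group a larger share of these genes than of all genes differed by over 1 log2 unit between the 2 arrays. The shares were highest in both scurfy groups and in Treg mock. In scurfy mock all 40 genes were higher on array 1 than on array 2, as were 53.3% of all genes tested. The median gap was 2.15 log2 units, while the median over all genes tested was 0.04. The gap was over 1 for 80% of the 40 genes and for 14% of all genes. In scurfy Foxp3 all 40 were again higher on array 1, as were 78.9% of all genes. The median gap was 1.11 against 0.41 over all genes, with 55% of the 40 over 1 against 15.8% of all genes. In Treg mock 39 of 40 were higher on array 2, with a median gap, array 1 minus array 2, of -0.88 against -0.34 over all genes. Only 21.1% of all genes were higher on array 1 of that group. The gap was over 1 there for 42.5% of the 40 genes and for 10.9% of all genes. In Tconv mock and Tconv Foxp3 the median gaps were 0.17 and -0.12, against 0.06 and -0.11 over all genes. Gaps over 1 were found for 10% and 12.5% of the 40 genes, against 6.11% and 4.28% of all genes. The groups of 2 arrays therefore had SDs of the mean level of 1.68 in scurfy mock, 0.81 in scurfy Foxp3, 0.75 in Treg mock, 0.15 in Tconv mock and 0.04 in Tconv Foxp3 (n = 2 arrays each).

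**Figure D2:**
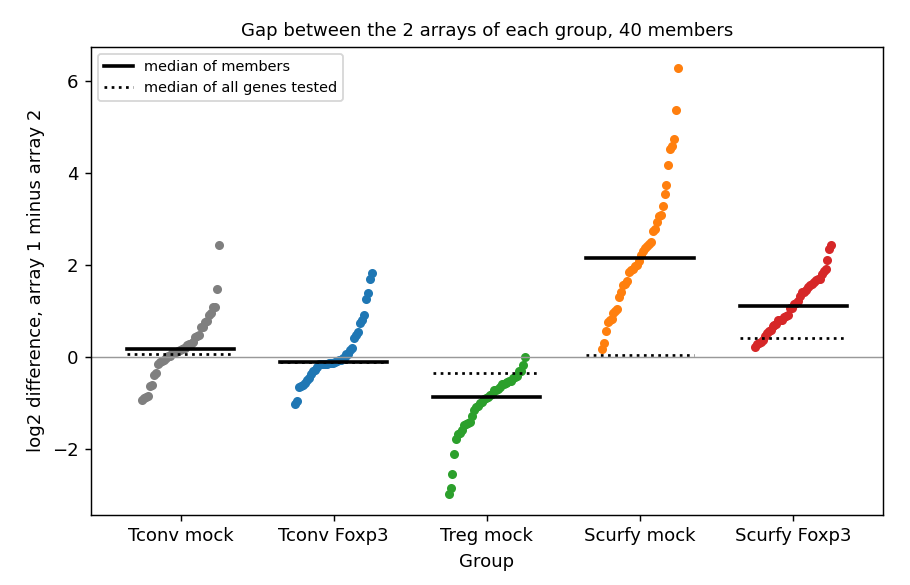
Difference between array 1 and array 2 of each group on the log2(intensity + 16) scale, with 1 point for each of the 40 interferon-induced genes, a solid bar at their median and a dotted bar at the median of all genes tested. In scurfy mock and scurfy Foxp3 all 40 genes lie above 0, where 53.3% and 78.9% of all genes tested were higher on array 1.

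Among the transcription factors, Irf7, which amplifies the type I interferon response, had the widest range. Irf7 read 90 and 68.1 in Tconv mock, 16.3 and 33.1 in Tconv Foxp3, 25.1 and 161 in Treg mock, 828 and 56 in scurfy mock and 393 and 123 in scurfy Foxp3. It was thus brightest on scurfy mock array 1, followed by scurfy Foxp3 array 1, while scurfy mock array 2 fell within the range of the Tconv mock and Tconv Foxp3 arrays. Stat2, a subunit of the ISRE-binding complex, read 301 and 220 in Tconv mock, 170 and 112 in Tconv Foxp3, 99.2 and 382 in Treg mock, 1160 and 260 in scurfy mock and 517 and 212 in scurfy Foxp3. Its lowest values were on Treg mock array 1 and in Tconv Foxp3. Irf9, the DNA-binding subunit of that complex, read 176 and 187 in Tconv mock, 171 and 162 in Tconv Foxp3, 164 and 346 in Treg mock, 455 and 263 in scurfy mock and 542 and 327 in scurfy Foxp3. The 3 arrays that were highest for Irf9 were both of array 1 of the scurfy groups and Treg mock array 2. Irf1, a factor strongly induced by interferon gamma, read 775 and 734 in Tconv mock, 1122 and 1757 in Tconv Foxp3, 823 and 1136 in Treg mock, 3055 and 1472 in scurfy mock and 1537 and 924 in scurfy Foxp3. Unlike Irf7, Irf1 was higher on both scurfy mock arrays than on both Tconv mock arrays, and both Tconv Foxp3 arrays were above Tconv mock too.

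The effectors had the widest ranges of any role with more than 2 genes, with a median of 4.38 log2 units over 10 genes. Ifit1, which binds viral RNA that lacks host cap methylation, read 27.8 and 9.51 in Tconv mock, 15.4 and 0.667 in Tconv Foxp3, 22.9 and 264 in Treg mock, 2136 and 35.9 in scurfy mock and 943 and 248 in scurfy Foxp3. Rsad2, or viperin, an enzyme that makes a chain-terminating nucleotide, read 8.14 and 3.93 in Tconv mock, 2.08 and 2.46 in Tconv Foxp3, 7.53 and 19.4 in Treg mock, 1802 and 7.23 in scurfy mock and 668 and 220 in scurfy Foxp3. For Rsad2 scurfy mock array 2 was as dim as the Tconv mock arrays, while both scurfy Foxp3 arrays were far brighter than any Tconv or Treg array. Isg20, an exonuclease of viral RNA, read 489 and 77.9 in Tconv mock, 174 and 121 in Tconv Foxp3, 284 and 481 in Treg mock, 2856 and 109 in scurfy mock and 1105 and 479 in scurfy Foxp3, with the widest gap between the Tconv mock arrays of the 40 genes, 2.43 log2 units. Ifit2, an RNA-binding relative of Ifit1, read 40.9 and 70.5 in Tconv mock, 229 and 256 in Tconv Foxp3, 204 and 317 in Treg mock, 940 and 97.8 in scurfy mock and 259 and 116 in scurfy Foxp3. Its order differed from that of Ifit1, since both Tconv Foxp3 arrays and both Treg arrays were above both Tconv mock arrays. Bst2, or tetherin, which holds virus particles at the cell surface, read 80.6 and 133 in Tconv mock, 70.7 and 108 in Tconv Foxp3, 74.2 and 95.7 in Treg mock, 400 and 140 in scurfy mock and 476 and 169 in scurfy Foxp3. The other effectors, Ifit3, Mx1, Mx2, Cmpk2 and Samd9l, peaked at intensities of 90.2 to 663, on scurfy mock array 1 for each but Mx2, which peaked on scurfy Foxp3 array 1.

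The OAS family makes the oligoadenylate messenger that activates RNase L, apart from relatives that lack this activity. Oas1a read 19.5 and 17 in Tconv mock, 14.2 and 2.19 in Tconv Foxp3, 56.9 and 162 in Treg mock, 682 and 74.7 in scurfy mock and 393 and 204 in scurfy Foxp3. All 4 scurfy arrays and both Treg arrays were above all 4 Tconv arrays for Oas1a. Oas3 read 410 and 446 in Tconv mock, 181 and 39.8 in Tconv Foxp3, 41.4 and 138 in Treg mock, 2593 and 180 in scurfy mock and 1291 and 241 in scurfy Foxp3. Here both Tconv mock arrays were above both Treg arrays and both Tconv Foxp3 arrays, so the order of groups differed from that of Oas1a. Oasl2, an OAS-like protein, read 0.501 and 0.256 in Tconv mock, 0.468 and 0.472 in Tconv Foxp3, 2.43 and 8.9 in Treg mock, 102 and 6.95 in scurfy mock and 85 and 41.7 in scurfy Foxp3, with values above 40 on 3 scurfy arrays only and the Tconv arrays at background. Oas2 and Oasl1, which did not pass the filter, peaked at 31.7 and 22.1.

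All 5 nucleic acid sensors were highest on scurfy mock array 1. Ddx58, which encodes the RNA sensor RIG-I, read 184 and 350 in Tconv mock, 98.8 and 111 in Tconv Foxp3, 133 and 461 in Treg mock, 1369 and 453 in scurfy mock and 789 and 304 in scurfy Foxp3. Dhx58, its relative LGP2, read 37.5 and 54.6 in Tconv mock, 31.1 and 3.79 in Tconv Foxp3, 49.5 and 90.8 in Treg mock, 684 and 65.8 in scurfy mock and 427 and 127 in scurfy Foxp3. Eif2ak2, the kinase PKR that halts translation on double-stranded RNA, read 284 and 319 in Tconv mock, 221 and 75 in Tconv Foxp3, 193 and 614 in Treg mock, 1677 and 293 in scurfy mock and 1313 and 338 in scurfy Foxp3. For these 3 genes both Tconv Foxp3 arrays were below both Tconv mock arrays. Zbp1, a sensor of Z-form nucleic acid, read 1390 and 489 in Tconv mock, 1496 and 1637 in Tconv Foxp3, 859 and 1580 in Treg mock, 4800 and 951 in scurfy mock and 2412 and 1664 in scurfy Foxp3. Zbp1 read at least 489 on every array, and both Tconv Foxp3 arrays were above Tconv mock. Ifih1, the RNA sensor MDA5, ranged from 65.6 to 716 with a median of 146.

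In the ISG15 system and among the signal modulators, the median range was 2.39 log2 units. Ifi35, a partner of the protein Nmi, read 2706 and 2385 in Tconv mock, 2252 and 2749 in Tconv Foxp3, 1973 and 3094 in Treg mock, 4345 and 2950 in scurfy mock and 4543 and 3055 in scurfy Foxp3. Its values stayed within a factor of 2.29 on the log2(intensity + 16) scale over all 10 arrays. Parp14, an ADP-ribosyltransferase, read 589 and 621 in Tconv mock, 506 and 702 in Tconv Foxp3, 646 and 1153 in Treg mock, 1837 and 1023 in scurfy mock and 1942 and 917 in scurfy Foxp3. All 4 scurfy arrays and Treg mock array 2 were above all 4 Tconv arrays for Parp14. Dtx3l, a ubiquitin ligase that works with Parp9, read 518 and 429 in Tconv mock, 707 and 616 in Tconv Foxp3, 484 and 1053 in Treg mock, 2307 and 572 in scurfy mock and 1293 and 734 in scurfy Foxp3. Usp18, the protease that removes ISG15 and damps signalling from the type I receptor, ranged from 13.8 on Treg mock array 1 to 516 on scurfy Foxp3 array 1.

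The IRG and GBP GTPases attack vacuoles of intracellular pathogens and are strongly induced by interferon gamma. Igtp, or Irgm3, read 3781 and 3106 in Tconv mock, 3787 and 4092 in Tconv Foxp3, 2501 and 3665 in Treg mock, 6292 and 3221 in scurfy mock and 4225 and 3448 in scurfy Foxp3. Ifi47 read 1721 and 1088 in Tconv mock, 2185 and 2432 in Tconv Foxp3, 1282 and 2246 in Treg mock, 3584 and 1437 in scurfy mock and 1873 and 1517 in scurfy Foxp3. Irgm2 read 1368 and 977 in Tconv mock, 2039 and 2282 in Tconv Foxp3, 1465 and 2115 in Treg mock, 4036 and 1055 in scurfy mock and 2288 and 1657 in scurfy Foxp3. For Ifi47, Igtp and Irgm2 scurfy mock array 1 was highest, and both Tconv Foxp3 arrays were above both Tconv mock arrays, for Igtp only just. Gbp2, a guanylate-binding protein induced by interferon gamma, read 220 and 432 in Tconv mock, 769 and 1502 in Tconv Foxp3, 444 and 650 in Treg mock, 1712 and 451 in scurfy mock and 566 and 304 in scurfy Foxp3. It was next brightest after scurfy mock array 1 on the Tconv Foxp3 arrays, both above scurfy Foxp3. Gbp3, its paralog, read 396 and 198 in Tconv mock, 276 and 575 in Tconv Foxp3, 1117 and 1852 in Treg mock, 862 and 424 in scurfy mock and 1100 and 328 in scurfy Foxp3. It was the only one of the 42 genes highest on a Treg array, and both Treg arrays were above all the others in that gene. The IFIT, OAS and GBP families hold close paralogs, and whether a probe set also reads a relative was not tested.

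The genes of MHC class I peptide supply varied least. Psmb8 read 3866 and 3801 in Tconv mock, 3463 and 3602 in Tconv Foxp3, 3346 and 3343 in Treg mock, 4899 and 3957 in scurfy mock and 4009 and 3457 in scurfy Foxp3, and Psmb9 read 6625 and 6015 in Tconv mock, 5824 and 6757 in Tconv Foxp3, 4322 and 5361 in Treg mock, 7570 and 6682 in scurfy mock and 7219 and 5577 in scurfy Foxp3; both are subunits of the immunoproteasome. Tap1, a subunit of the peptide transporter, read 796 and 697 in Tconv mock, 818 and 1013 in Tconv Foxp3, 522 and 785 in Treg mock, 1644 and 934 in scurfy mock and 1112 and 883 in scurfy Foxp3. For all 3 genes scurfy mock array 1 was highest, with ranges of only 0.55, 0.81 and 1.63 log2 units. The dimmer probe sets had correlations with the ones used of 0.031 for Psmb8 and of -0.254, 0.0946 and 0.524 for Tap1. Across the 17 genes with several probe sets the median correlation was 0.922 over 24 further probe sets.

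Of the other induced genes, Rtp4, a receptor-transporting protein, had the widest range of all 42 genes, 7.04 log2 units. Rtp4 read 18.6 and 0.332 in Tconv mock, 1.21 and 3.1 in Tconv Foxp3, 33.3 and 372 in Treg mock, 2137 and 64.7 in scurfy mock and 954 and 309 in scurfy Foxp3. Xaf1, a pro-apoptotic partner of XIAP, read 250 and 222 in Tconv mock, 42.9 and 59.6 in Tconv Foxp3, 128 and 441 in Treg mock, 2053 and 373 in scurfy mock and 1917 and 537 in scurfy Foxp3. Both scurfy Foxp3 arrays were above all the Tconv and Treg arrays for Xaf1, and both Tconv Foxp3 arrays were below both Tconv mock arrays.

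**Figure D3:**
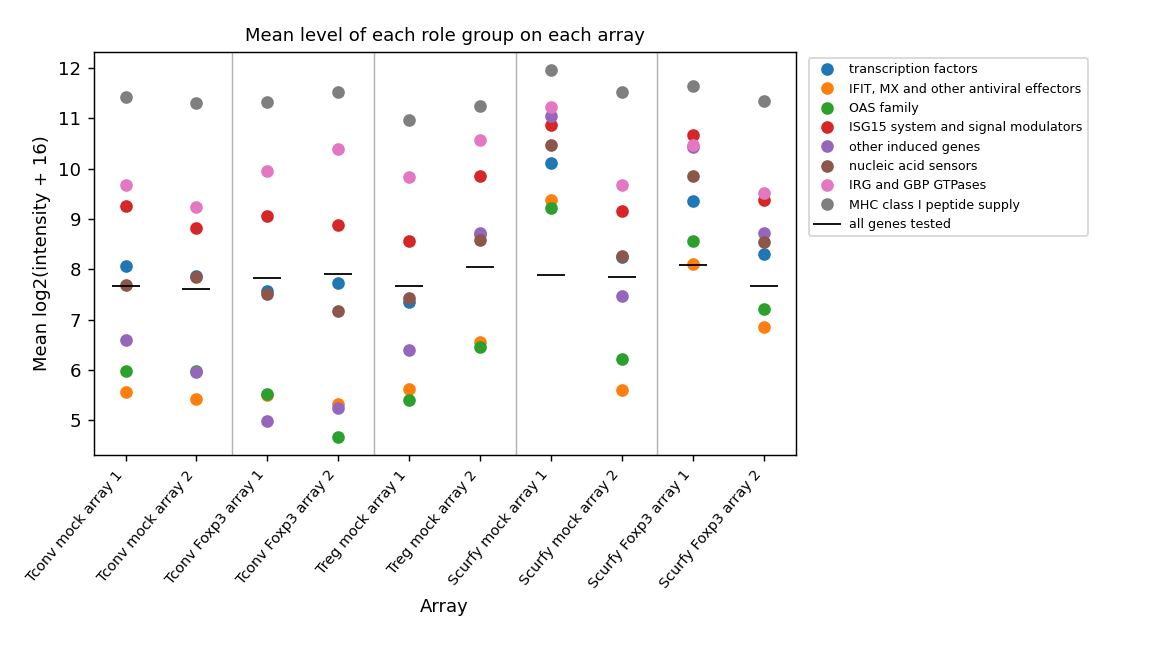
Mean log2(intensity + 16) of the genes of each role on each array, with 1 coloured point per role, arrays along the horizontal axis and a black bar for the mean of all genes tested. The effectors and the OAS family read 9.38 and 9.22 on scurfy mock array 1 and 5.61 and 6.21 on scurfy mock array 2, and the MHC class I genes stay between 10.96 and 11.95.

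Scurfy mock against Tconv mock compares cells with an active Foxp3 promoter but no functional Foxp3 with conventional cells, both with the empty vector. All 40 genes had positive differences (38 at a common 75th percentile), with a median of 1.35 log2 units against 0.22 over all genes (1.09 against -0.02 after quantile normalization), and the largest were in Rtp4 (4.13, SE 1.41), Ifit1 (3.32, SE 1.54), Rsad2 (3.23, SE 1.54) and Oas1a (2.88, SE 0.83). None of the 40 passed limma's test at a Benjamini-Hochberg adjusted p under 0.05, where 0.574% of all genes did. The lowest adjusted p was 0.193, for Irf1 (1.47, SE 0.42), and 9 of the 40 (22.5%) had an unadjusted p under 0.05 where 13.8% of all genes did. Of the 40 genes, Mx2, Oasl2, Rsad2 and Cmpk2 passed the filter only through scurfy arrays, so a higher level there was needed for them to be tested at all. Over the other 36 genes the median was 1.25, with all 36 positive, against 0.21 over the other genes tested. By role the medians were 1.78 for the effectors, 1.67 for the OAS family, 1.58 for the sensors, 1.22 for the transcription factors, 1.07 for the GTPases, 1.05 for the ISG15 system and 0.20 for MHC class I peptide supply. Both scurfy mock arrays were above both Tconv mock arrays for 23 of the 40 genes, where 38.8% of all genes were so, and none was below on both, where 12.1% were. The size of the difference came from scurfy mock array 1: without it the median was 0.22, and without array 2 it was 2.38. Mx2 and Oasl2 are among the 23 genes without overlap. Oasl2 is also among the 9 with an unadjusted p under 0.05 by limma, so the filter favoured both counts.

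In scurfy mock against Treg mock the 40 genes had a median difference of 1.05 against 0.04 over all genes. The difference was positive for 38 of the 40, and the largest were in Oas3 (2.93, SE 1.19) and Rsad2 (2.83, SE 1.54). Gbp3 went the other way (-1.23, SE 0.63), with both scurfy mock arrays below both Treg arrays. None of the 40 genes was called by limma after Benjamini-Hochberg adjustment, where 0.256% of all genes were, the lowest adjusted p was 0.444, for Ifih1 (1.82, SE 0.63), and 7 (17.5%) had an unadjusted p under 0.05 where 7.93% of all genes did. Over the 36 genes that did not need a scurfy array to pass the filter, which leave out Rsad2, the median was 0.97. Of these, 34 were positive, and the median over the other genes tested was 0.03. Both scurfy mock arrays were above both Treg arrays for 9 genes, where 18% of all genes were so, and below for 1, where 14.5% were. Mx2, which needed a scurfy array to pass the filter, is among the 9. The median was -0.03 when scurfy mock array 1 was left out and 2.08 without array 2.

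Treg mock against Tconv mock asks how natural Treg differ from conventional cells. Single genes of 4 roles had the largest positive differences, Rtp4 2.54 (SE 1.41), Gbp3 2.29 (SE 0.63), Ifit2 1.95 (SE 0.82) and Oas1a 1.74 (SE 0.83), while Oas3 had a negative one, -2.24 (SE 1.19). None of the 40 genes was called by limma, where 1.09% of all genes were, and the lowest adjusted p was 0.129, for Gbp3. The median over the 40 was 0.29 against 0.19 over all genes, with 28 positive, and 2 genes (5%) had an unadjusted p under 0.05 where 15.4% of all genes did. Both Treg arrays were above both Tconv mock arrays for 11 genes, where 35.2% of all genes were so, and below for 4, where 16.3% were. The sign of the median followed the array and the scaling: it was -0.16 without Treg mock array 2, 0.81 without array 1 and -0.02 at a common 75th percentile.

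Tconv Foxp3 against Tconv mock asks what the Foxp3 vector does in conventional cells. All 7 GTPases were positive (median 0.74; 6 of 7 after quantile normalization and 5 of 7 at a common 75th percentile), as were 72.4% of all genes. Of the sensors 3 of 5 were negative (median -1.01; 4 of 5 under both scalings), and the difference between roles was not tested. The largest positive differences were in Ifit2 (1.88, SE 0.82) and Gbp2 (1.75, SE 0.63), with Irf1 at 0.88 (SE 0.42), and the largest negative ones in Oas3 (-2.08, SE 1.19), Xaf1 (-1.92, SE 0.84) and Irf7 (-1.25, SE 1.07). None of the 40 was called by limma, where 0.106% of all genes were, the lowest adjusted p was 0.301, for Gbp2, and 3 (7.5%) had an unadjusted p under 0.05 where 13.9% of all genes did. The median over the 40 was -0.07 against 0.26 over all genes. Both Tconv Foxp3 arrays were above both Tconv mock arrays for 10 genes, where 47.6% of all genes were so, and below for 14, where 11.6% were.

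Scurfy Foxp3 against scurfy mock asks the same of GFP+ cells without functional Foxp3. The arrays of the 2 groups overlapped for all 40 genes, where 14% of all genes were higher and 8.84% lower with no overlap. The median difference was -0.09, against -0.02 over all genes, and ran from -1.26 (Gbp7, SE 0.82) to 0.97 (Rsad2, SE 1.54). None of the 40 was called by limma, where 0.0353% of all genes were, none had an unadjusted p under 0.05, and the lowest adjusted p was 0.999. All 7 GTPases were negative here (6 of 7 after quantile normalization), with a median of -0.24, but without scurfy mock array 1 5 of the 7 were positive and their median was 0.24. The median was 0.87 without scurfy mock array 1 and -1.24 without array 2, so its sign was set by which scurfy mock array was kept. The 95% interval ran from -3.12 to 0.60 for Gbp7 and from -0.80 to 0.31 for Psmb8, so the sizes that could not be told apart from none differed between genes.

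The difference between the Foxp3 vector's effect in scurfy cells and that in Tconv was most negative in Gbp2 (-2.81, SE 0.90), Ifit2 (-2.67, SE 1.16) and Irf1 (-1.71, SE 0.59), each with an unadjusted p under 0.05. All 7 GTPases were negative, with a median of -0.98, against -0.28 over all genes, of which 7884 of 11318 were negative. Without scurfy mock array 1 the median of the GTPases was -0.02, and 3 of the 7 were positive. None of the 40 was called by limma (lowest adjusted p 0.545), nor was any of the 11318 genes (0%), of which 285 higher and 627 lower ones had an unadjusted p under 0.05. Without scurfy mock array 1 the median over the 40 genes was 1.10, without array 2 it was -0.998, and with all arrays it was 0.10.

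Scurfy Foxp3 against Tconv Foxp3, a comparison added after the values were seen, uses none of the mock arrays. Most of the 40 genes were higher in scurfy Foxp3, with a median of 1.22 against -0.07 over all genes and the largest differences in Rtp4 (4.95, SE 1.41), Rsad2 (4.46, SE 1.54), Ifit1 (4.46, SE 1.54), Xaf1 (3.95, SE 0.84) and Oas1a (3.68, SE 0.83). Both scurfy Foxp3 arrays were above both Tconv Foxp3 arrays for 28 of the 40, where 22.9% of all genes were so. They were below for 2, Gbp2 and Ifi47, where 25.5% were. Xaf1 was called by limma at an adjusted p of 0.0495 (95% interval 2.05 to 5.86), and 2.24% of all genes were called. The call of Xaf1 was lost in 14 of 18 alternatives, 6 of 8 other settings and 8 of 10 fits that left out an array, with an adjusted p of 0.0191 to 0.291 over all 18. Those 8 fits were the ones without an array of Tconv mock, Tconv Foxp3, Treg mock or scurfy Foxp3. Oas1a came next at an adjusted p of 0.0621, and 15 of the 40 (37.5%) had an unadjusted p under 0.05 where 17.1% of all genes did. Mx2, Oasl2, Rsad2 and Cmpk2 passed the filter only through scurfy arrays, so the filter favoured every count here that includes them. All of them are among the 28 without overlap, and Mx2, Oasl2 and Rsad2 are among the 15. Over the 36 genes that did not need a scurfy array to pass the filter the median was 1.16, with 29 positive, against -0.09 over the other genes tested. By role, the OAS family had a median of 2.46, the sensors 2.07 and the effectors 1.79. MHC class I peptide supply was at 0.08 and the GTPases at -0.15, with 2 of 7 positive. The difference between roles was not tested. The median was 0.61 without scurfy Foxp3 array 1 and 1.84 without array 2. The spread was pooled over all groups, and when either scurfy mock array was left out 8 genes were called (Ifit1, Oas1a, Oasl2, Rsad2, Xaf1, Dhx58, Rtp4 and Cmpk2), where 3.35% of all genes were.

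**Figure D4:**
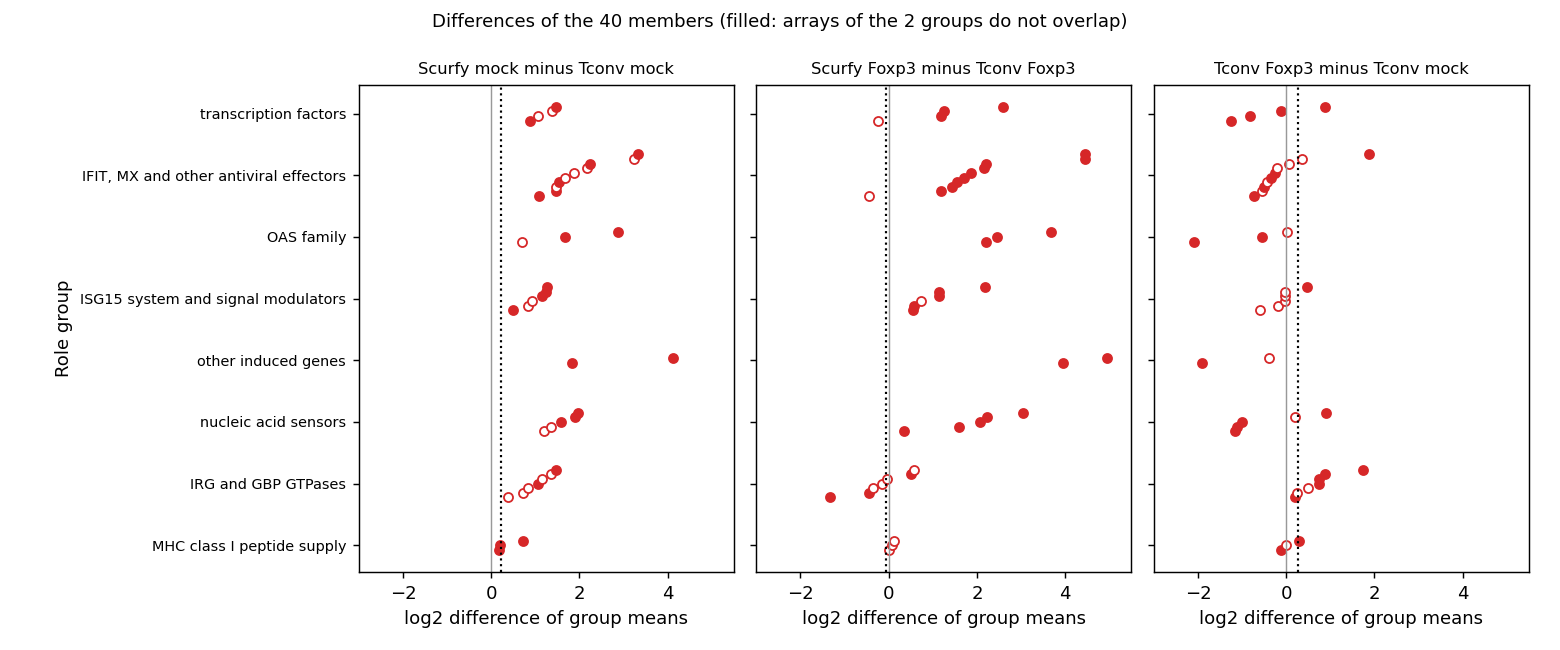
Log2 difference of group means of each of the 40 genes in 3 comparisons, 1 panel each, with roles in rows, a grey line at 0 and a dotted line at the median of all genes tested. Filled points are genes whose arrays do not overlap between the groups; the points of scurfy mock against Tconv mock all lie above 0 (38 of 40 at a common 75th percentile), and the GTPases are all positive in Tconv Foxp3 against Tconv mock (6 of 7 after quantile normalization) and 2 of 7 are in scurfy Foxp3 against Tconv Foxp3.

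The interferon-induced genes moved together over the arrays. The median correlation between pairs of the 40 genes was 0.772 over the 10 arrays and 0.598 over the 9 arrays without scurfy mock array 1, and it describes arrays that share amplification and depth. The correlation of a gene with the mean of the other members ran from 0.371 in Gbp2 to 0.969 in Ifit1, with a median of 0.894. Among the 11278 other genes tested the median correlation with the members' mean was 0.224, and 0.497% exceeded 0.9. The nearest was Adar, the RNA-editing enzyme ADAR1, at 0.991, which read 219 and 214 in Tconv mock, 209 and 209 in Tconv Foxp3, 214 and 359 in Treg mock, 837 and 260 in scurfy mock and 661 and 285 in scurfy Foxp3. Trim12c (0.965), Zup1 (0.963), Ifi202b (0.962) and Parp11 (0.961) followed. A further 55 genes were listed as interferon-induced, of which 40 were tested. Of these 24 were highest on scurfy mock array 1 and 10 on scurfy Foxp3 array 1. A correlation over 0.8 was found for 18 (45%), against 3.36% of the 11278 genes outside the members. In scurfy mock against Tconv mock 39 of the 40 had positive differences, where 68% of all genes did, with a median of 0.85 against 0.22. None was called there, where 0.574% of all genes were. In scurfy Foxp3 against Tconv Foxp3 5 were called by limma, where 2.24% of all genes were. These were Ifitm3 (4.20), Cxcl10 (3.37), Ccl5 (2.54), Ifitm2 (2.06) and Tor3a (1.63).

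No interferon, receptor or receptor kinase tested had a correlation over 0.644 with the members' mean. Ifng, interferon gamma, read 35.2 and 209 in Tconv mock, 179 and 519 in Tconv Foxp3, 60.4 and 62.5 in Treg mock, 356 and 1861 in scurfy mock and 1362 and 1751 in scurfy Foxp3. In scurfy mock Ifng was thus dimmer on array 1, where the interferon-induced genes were brightest, than on array 2. Its correlation with the members' mean was 0.308, and its difference between scurfy mock and Tconv mock was 2.96 (SE 0.85), not called by limma (adjusted p 0.199). Ifnb1, interferon beta, stayed under 10 on every array, while Ifna1, an interferon alpha, read 105 on scurfy mock array 1 and 30.7 to 54.8 on the other arrays. The correlation of Ifna1 with the members' mean was 0.435, the highest of the 4 interferon ligands tested. Whether the Ifna1 probe set also reads other interferon alpha genes was not tested. Ifnar1 ranged from 144 to 345 and Ifnar2 from 540 to 1375, both without a peak on scurfy mock array 1. Ifngr1 was highest in Treg mock, at 898 and 1561, against 292 and 93.7 in Tconv mock. Socs1, a feedback inhibitor of the receptors' kinases, ranged from 19.1 to 46.6, and its highest value was on scurfy mock array 1. The part of any interferon, receptor or kinase in the levels of the interferon-induced genes was not tested.

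Markers of other cell types varied between the arrays beside these genes. The 5 natural killer cell markers measured summed to 357 and 73.4 in scurfy mock and to 347 and 411 in scurfy Foxp3, against 15.2 to 88.7 on the other 6 arrays, with 3 of the 5 under 50 throughout. On scurfy mock array 1 this was mostly Klrk1, at 323, a receptor also found on some activated T cells. In scurfy Foxp3 it was mostly Tyrobp, an adaptor of natural killer and myeloid cells, at 284 and 383. The log2 sum of the natural killer markers had a correlation of 0.775 with the members' mean, the highest of the cell type lists. Taken singly, the correlation was 0.697 for Klrk1 and 0.386 for Tyrobp. Tyrobp was called by limma in scurfy Foxp3 against Tconv Foxp3 (3.49, adjusted p 0.00779), the comparison in which Xaf1 was called. The 7 B cell markers summed to 46.4 to 1760, with 86.1 on scurfy mock array 1 and the highest sum on scurfy Foxp3 array 2. Siglech, a defining marker of plasmacytoid dendritic cells, the main producers of type I interferon, stayed at or under 24.6 on every array. The 5 markers of that type summed to 416 to 1090, with the peak on scurfy Foxp3 array 1, but one of them is Bst2, itself among the 42 genes. Without Bst2 the sum was 244 on scurfy mock array 1, its lowest, and 244 to 679 over all arrays. Its correlation with the members' mean was then -0.13 in place of 0.67. Taken singly, the markers differed, with correlations of 0.746 for Cox6a2, 0.081 for Tcf4 and -0.7 for Klk1. The part of this cell type in the differences was not tested. The 10 myeloid and dendritic markers summed to 1240 to 3060, with 7 of 10 under 50 on all arrays and 2330 on both scurfy mock arrays. In scurfy Foxp3 against Tconv Foxp3 all 6 myeloid markers tested were positive, with a median of 0.99, and 5 of the 6 had an unadjusted p under 0.05 while none was called. In RNA of a bulk sample, fewer cells of a type and less RNA per cell cannot be told apart. The part of the natural killer and myeloid cell markers in the differences described here was not tested.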

How the data were processed

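Affymetrix whole-genome mouse arrays, 10 in all, were hybridised with cDNA amplified by the NuGEN FL-Ovation method, per the labels' protocols. The deposited values are intensities on a linear scale, which the authors made with Affymetrix Expression Console, per the submitters' processing notes. How probe sets were summarised and scaled was not given in the sources used here. Array medians ran from 18.8 to 36.5, and the number of arrays limits precision.

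Each of 18193 genes was represented by its single-symbol probe set with the highest mean. Intensities became log2(intensity + 16) with no further normalization. A gene was tested if it exceeded the median of 2 or more arrays, which held for 11318. The R package limma 3.58.1 (R 4.3.3, lmFit and eBayes) gave the differences between groups from 1 model of the 10 arrays, with 5 residual degrees of freedom. P-values were two-sided and adjusted by Benjamini-Hochberg over all genes tested, and "called" means an adjusted p under 0.05. The pipeline was tested on simulated data for scurfy mock against Tconv mock, with 11318 genes: 1 of 67 changes of 1 log2 unit, 38 of 67 of 2 and 57 of 66 of 3 were recovered. Of the 103 calls made, 7 were false. The simulated noise was drawn separately for each gene, without a shift shared by genes on an array. Its rates therefore do not describe the interferon-induced genes, which moved together.

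The members and lists were chosen with earlier results of these data known. Genes named with values were the called ones, the 3 highest means of each role and the 6 widest ranges; Irf7 and others named beside a comparison were added after their values were seen. Alternatives were other scalings, pseudocounts, filters and summaries, a block on replicate number and the omission of single arrays.
The medians without genes that passed the filter only through scurfy arrays, and the marker sum without Bst2, were chosen after seeing the data.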

Additional observations from a re-analysis of the deposited data

How the results depend on the processing

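Calls depended on single arrays. Leaving out 1 array at a time, the number of the 40 genes called went from 0 to 10 in scurfy mock against Tconv mock (10 without scurfy mock array 2), from 0 to 5 in scurfy mock against Treg mock (5 without scurfy mock array 2) and from 0 to 8 in scurfy Foxp3 against Tconv Foxp3. The medians over the 40 genes then ran from 0.22 to 2.38, from -0.03 to 2.08 and from 0.61 to 1.84. They ran from -0.16 to 0.81 in Treg mock against Tconv mock, from -0.13 to -0.02 in Tconv Foxp3 against Tconv mock, from -1.24 to 0.87 in scurfy Foxp3 against scurfy mock and from -0.998 to 1.10 in the difference between the vector's effects. In Tconv Foxp3 against Tconv mock the median was -0.34 after quantile normalization and -0.35 at a common 75th percentile, beside medians over all genes of 0.01 and -0.02. In scurfy Foxp3 against Tconv Foxp3, chosen after the values were seen, 2 genes were called at a common 75th percentile (Oas1a and Xaf1). With the settings used above 1 of the 40 was called (Xaf1), where 2.24% of all genes were. With the mean of a gene's probe sets 1 was called, Oas1a and not Xaf1. There 0 were called with a pseudocount of 1 or 64, without the filter, with trend and robust options or with the replicate block; the cause was not tested. Xaf1 was 2.54 to 4.86 over all alternatives. Over all genes tested, the gaps between arrays 1 and 2 were weakly correlated between groups (10 pairs, correlations from -0.17 to 0.18, 2 over 0.1). The numbers were therefore not used to pair arrays. Among the 40 genes, all were higher on array 1 in both scurfy groups, and 39 were higher on array 2 in Treg mock. With the replicate block 0 of the 40 genes were called in every comparison. Each group held 1 array of each number, so the block could not change the differences or their medians.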
